A study of Mus musculus with 20 samples.

Results

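Nestin, vimentin, brain lipid-binding protein and the transcription factors around them are the genes by which neural stem and progenitor cells are usually recognised. Nes, Vim, Fabp7, Sox2, Hes1, Hes5, Pax6, Eomes and Hopx were followed here by gene symbol in a table of raw read counts of mouse hippocampus. They make up 9 of the 32245 symbols in that table, and all 9 were among the 15373 genes left by a filter on low counts.

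The libraries came from Rbp4-Cre:RiboTag mice, labelled granule cells, at postnatal day 5 (P5), 7, 10, 15, 21 and 28. In such mice the cells in which Cre has acted carry HA-tagged RPL22 in their ribosomes, and anti-HA beads recover these ribosomes with their mRNA from lysate of the whole hippocampus. All groups shared this genotype and no treatment is named, so age is the only factor, and the Rbp4-Cre driver decides which cells are tagged. There were 5 libraries at P5 and 3 at each other age. The labels give 3 batch dates, which are lettered A to C. P5 replicates 1 to 3 and every P10 and P15 library were in batch A, the other two P5 libraries and every P7 library in batch B, and every P21 and P28 library in batch C. The P5 libraries of batch B carry replicate numbers 1 and 3 again, and the labels do not say whether they share an animal or lysate with those numbers in batch A, so the 5 may not be independent. Age and batch cannot be told apart where P21 or P28 is set against an earlier age.

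In the hippocampus, granule neurons of the dentate gyrus are still being made after birth. Radial glia-like stem cells, which carry the filaments nestin and vimentin and the transcription factor SOX2, give rise to dividing intermediate progenitors marked by the T-box factor EOMES (TBR2), and these yield young granule neurons. Notch signalling holds stem cells back from differentiation: ligand binding frees the receptor's intracellular domain, which joins the DNA-binding protein RBPJ and switches on the repressor genes Hes1 and Hes5. None of these genes is exclusive to stem cells. Vim is made in vessels, Hes1 in many cell types, and Sox2, Fabp7, Hes5 and Hopx in astrocytes.

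The promoters of Hes5 and Fabp7 are shown because the upstream sequences held for 8 of the 9 genes in a table of RefSeq promoters (mouse assembly GRCm38.p6) (Hes1 was not matched) were searched for the core of the RBPJ site, TGGGAA, on either strand in the 250 bases before each start, and only these 2 genes had it. From P5 to P28 these 2 genes had log2 changes of -5.68 (Fabp7) and -2.75 (Hes5). The genes without the core changed by -4.15 (Eomes), -3.96 (Nes), -3.11 (Vim), -1.78 (Sox2), -1.36 (Hopx) and -1.30 (Pax6). Whether the core bears on these changes was not tested. Capitals mark the core or, where it lies on the opposite strand, its complement. Hes5 and Fabp7 are both on the plus strand, and each run ends at the base before the gene start in GENCODE release vM21. The Hes5 run is chr4:154960673-154960922 and the Fabp7 run chr10:57784673-57784880.
Hes5: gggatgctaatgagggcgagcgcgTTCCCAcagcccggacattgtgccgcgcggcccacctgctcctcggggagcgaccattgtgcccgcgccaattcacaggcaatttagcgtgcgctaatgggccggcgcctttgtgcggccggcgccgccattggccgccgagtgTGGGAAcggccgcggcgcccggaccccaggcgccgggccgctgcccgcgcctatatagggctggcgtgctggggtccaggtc
Fabp7: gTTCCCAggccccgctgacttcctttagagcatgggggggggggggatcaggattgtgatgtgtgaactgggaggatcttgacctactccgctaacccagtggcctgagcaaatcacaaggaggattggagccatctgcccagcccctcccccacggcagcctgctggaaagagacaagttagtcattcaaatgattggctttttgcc

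Hes5 had 2 matches, at bases 226 to 221 on the opposite strand and 82 to 77 on its own strand before the start. Fabp7 had 1, at bases 249 to 244 before the RefSeq start on the opposite strand. Of 32851 promoters in the table, 21.6% held at least 1 such core and 2.77% held 2 or more. Hes5 also held 2 copies of ACAATG, a core bound by SOX proteins, on the opposite strand (bases 211 to 206 and 172 to 167), which 10.7% of promoters held at least once and 0.834% at least 2 times. A match of these few letters describes the sequence and is no record of binding.

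Total counts ranged from 15.9 to 24.9 M per library, and 3 counts, the level below which a value cannot be told from 0, corresponded to 0.122 to 0.181 counts per M (CPM). This floor covers counting error only. Whether the replicates are separate animals is not stated in the labels, and p-values measure only how these samples vary, which may be technical. Each change below is a fitted log2 change, later age minus earlier age, with edgeR's quasi-likelihood test and a Benjamini-Hochberg adjusted p over all 15373 genes, called where it is under 0.05. The model holds a term for batch B against A, so P10 and later ages are in effect set against P5 of batch A, and P7 against P5 of batch B. In ribosome pulldowns from bulk tissue, fewer cells of a type and less RNA per cell cannot be told apart.

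All 9 genes differed between the 6 ages, as did 79.7% of all genes tested. At P7, 1 of the 9 was lower than at P5 (Fabp7), against 4.89% of all genes. At P10, 8 of the 9 were lower than at P5 and 1, Hes1, was higher, where 30.6% of all genes were lower and 30.8% higher. The libraries of P10 lay wholly below those of P5 for 7 of the 9, against 27% of all genes. The median change of the 9 genes from P5 to P10 was -1.83 on the log2 scale, and that of all genes was -0.02. The same 8 to 1 split was found for P15 against P5 (31.8% of all genes lower, 31.6% higher) and for P28 against P5 (36.4% lower, 35.2% higher), which use the same P5 libraries. From P5 to P28 the libraries did not overlap for any of the 8 lower genes, against 33.7% of all genes.

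Between P7 and P10, 7 of the 9 genes fell, against 20.3% of all genes, with a median of -2.12, while only Fabp7 fell from P10 to P15 (2.52% of all genes lower). From P15 to P21 Fabp7, Hes5 and Hopx fell, against 14.8% of all genes. Vim alone was called lower from P21 to P28 (0.189% of all genes lower), although the P28 libraries lay wholly below the P21 libraries for 6 of the 9 genes, against 11% of all genes. The comparison of P10 with P7 crosses batches A and B, which are linked only through P5.

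**Figure D1:**
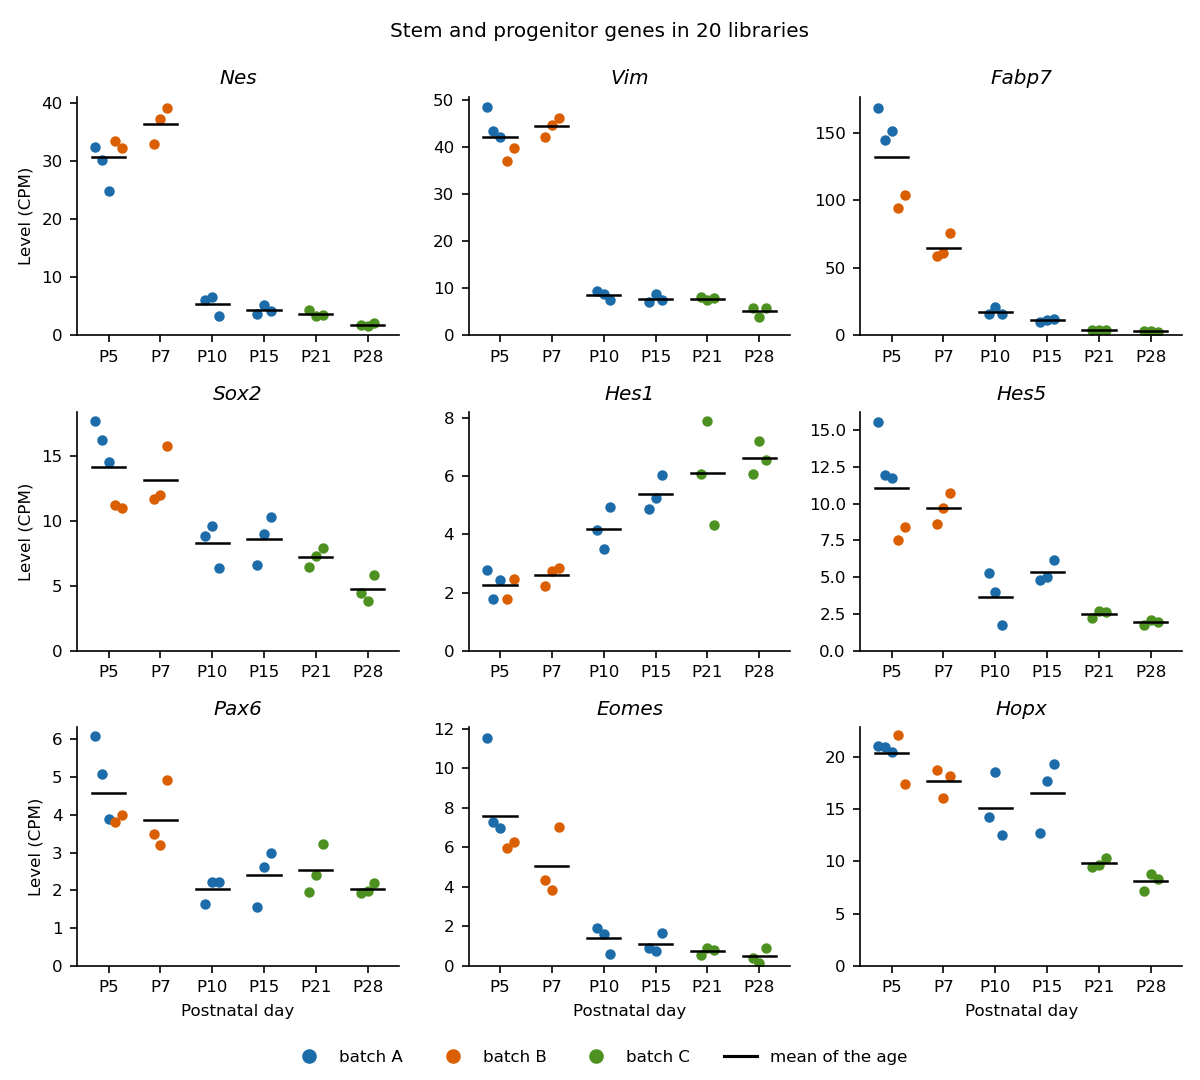
Level of each of the 9 genes (CPM, linear axis from 0) in the 20 libraries by postnatal day; points are libraries coloured by batch, and black lines are the mean of each age. Nes, Vim, Fabp7 and Eomes lie far lower from P10 on than at P5 and P7, the P10 and P15 points of Hopx overlap with those of P5, and Hes1 is the gene whose points climb.

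Nes encodes nestin, an intermediate filament protein of stem and progenitor cells (chromosome 3, 87971078 to 87980451, plus strand; all coordinates are those of GENCODE vM21 on the mm10 assembly). Its level was 32.4, 30.2 and 24.8 CPM at P5 in batch A, 33.4 and 32.2 at P5 in batch B, and 33.0, 37.1 and 39.1 at P7. It was 6.15, 6.62 and 3.37 CPM at P10, 3.77, 5.31 and 4.21 at P15, 4.41, 3.26 and 3.48 at P21, and 1.81, 1.62 and 2.20 at P28. The libraries of P5 and P7 overlap, every later library is far below the lowest of them, and the P28 libraries are all below those of P21. Nes fell by 2.44 (SE 0.17, edgeR adjusted p = 6.15e-11) from P5 to P10 and by 3.96 (SE 0.20, edgeR adjusted p = 7.2e-14) from P5 to P28, a 15.5-fold lower level. From P21 to P28 its change of -0.98 (SE 0.24) missed the threshold in edgeR (adjusted p = 0.0859) and passed it in DESeq2 (adjusted p = 0.00547).

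Vim encodes vimentin, the filament partner of nestin, which is also abundant in vessels and fibroblasts (chromosome 2, 13573927 to 13582826, plus strand). It measured 48.4, 43.4 and 42.1 CPM at P5 in batch A, 37.1 and 39.8 at P5 in batch B, and 42.2, 44.8 and 46.2 at P7. At P10 it measured 9.52, 8.73 and 7.52 CPM, at P15 7.12, 8.82 and 7.57, at P21 8.23, 7.43 and 7.85, and at P28 5.87, 3.93 and 5.74. After the step between P7 and P10 the levels of P10, P15 and P21 overlap. The change from P5 to P10 was -2.38 (SE 0.11, edgeR adjusted p = 7.52e-15), 76.4% of the log2 change reached by P28. The further change from P21 to P28 was -0.60 (SE 0.13, edgeR adjusted p = 0.0494). That call was lost in 18 of 21 alternatives, with a highest adjusted p of 0.284 without P28 replicate 2, and leaving out any single P5, P21 or P28 library ended it.

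Nes and Vim followed each other closely: the Pearson correlation of their log2 levels over the 20 libraries, a description of libraries that share age and batch, was 0.988. For each of the 2 genes the other was the most similar of 10569 genes with a mean of at least 5 CPM. Next for Nes came Lama2, a laminin chain gene, and Aspm, a mitotic spindle gene, and for Vim the receptor gene Lrig1 and the zinc finger gene Zfp57, all with correlations between 0.980 and 0.985. Other genes of filaments and fatty acid binding moved less uniformly from P5 to P15, with 3 of 9 higher, 2 lower and 4 not called. Of all genes, 31.6% were higher and 31.8% lower. Synm, which encodes the filament protein synemin, fell by 0.38 (SE 0.08, edgeR adjusted p = 0.000239). Plec, whose product plectin links filaments, rose by 2.11 (SE 0.23, edgeR adjusted p = 2.1e-06), and the lamin gene Lmna by 0.26 (SE 0.08, edgeR adjusted p = 0.0104).

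Fabp7 encodes brain lipid-binding protein, a fatty acid carrier of radial glia and astrocytes (chromosome 10, 57784881 to 57788450, plus strand). It was the highest of the 9 per length at P5 and had the largest change of the 9. Its level was 169, 145 and 151 CPM at P5 in batch A and 94.1 and 104 at P5 in batch B. It was 58.9, 61.0 and 75.6 CPM at P7, 15.7, 20.8 and 15.9 at P10, 10.1, 11.3 and 12.2 at P15, 4.17, 4.22 and 4.11 at P21, and 3.45, 3.04 and 2.49 at P28. No library of an age overlapped with those of the next age at any of the 5 steps.

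Fabp7 was also the only one of the 9 called as different between the batches at P5. It was lower in batch B than in batch A by a log2 difference of -0.65 (edgeR adjusted p = 0.000579), and 10.1% of all genes were called in either direction. Without a call, the P5 libraries of batch B also lay below those of batch A for Vim, Sox2, Hes5 and Eomes. For Nes, Hes1, Pax6 and Hopx they overlapped. The fall of Fabp7 from P5 to P7 was therefore measured within batch B, at -0.60 (SE 0.11, edgeR adjusted p = 0.00085). Without the batch term it was -1.02, and against the P5 libraries of batch A alone -1.25. Fabp7 then fell by 2.55 (SE 0.15, edgeR adjusted p = 3.32e-10) from P7 to P10, or by 1.90 without the batch term. The change from P10 to P15 was -0.64 (SE 0.12, edgeR adjusted p = 0.00543), a call lost without the batch term (adjusted p = 0.13), and the one from P15 to P21 was -1.42 (SE 0.15, edgeR adjusted p = 4.85e-07). From P21 to P28 the change of -0.47 (SE 0.18) was not called (edgeR adjusted p = 0.297). Over the whole span the level fell 51.4-fold, a log2 change of -5.68 (SE 0.14, edgeR adjusted p = 8.18e-19).

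The genes most like Fabp7 over the 20 libraries were Dcx, a microtubule gene of young migrating neurons, with a correlation of 0.995, Sema4g, a semaphorin gene, and Tbc1d16. A related carrier, Fabp5, had a mean P5 level of 153 ± 11.4 CPM (SD, n = 5) and a mean P15 level of 52.8 ± 5.17 (SD, n = 3). It fell by 1.55 (SE 0.09, edgeR adjusted p = 2.64e-13).

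**Figure D2:**
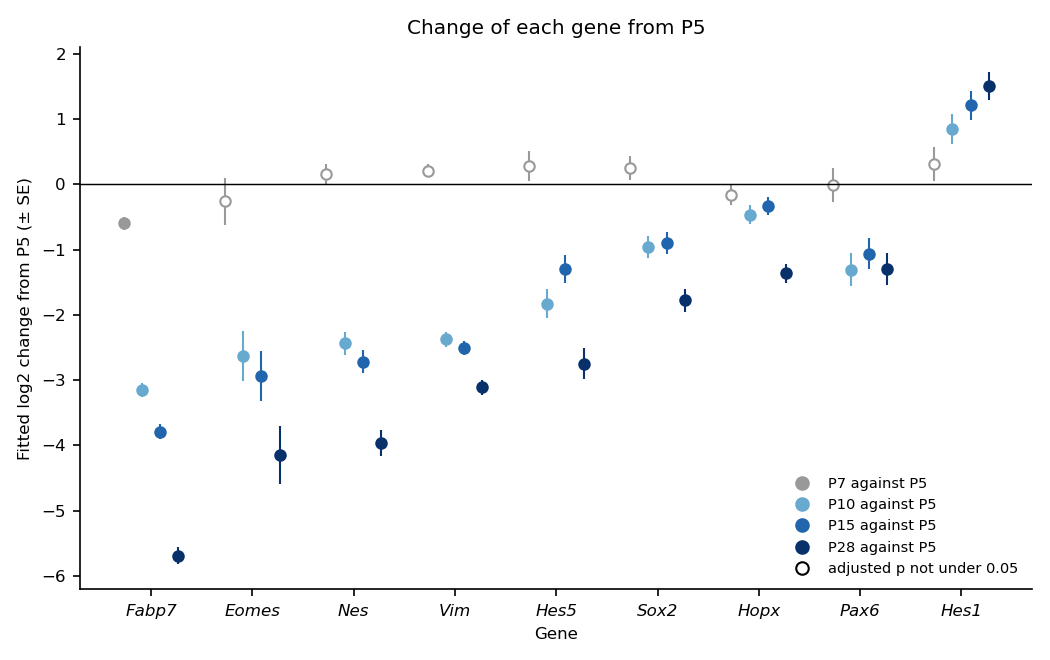
Fitted log2 change of each gene from P5 (points, with bars of 1 SE) for P7, P10, P15 and P28; open points did not pass an adjusted p of 0.05. Fabp7 reaches -5.68 at P28, Pax6 and Hopx change least among the lower genes at P28, Hopx and Sox2 at P10 and P15, and Hes1 is above 0.

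Sox2 encodes the transcription factor that maintains stem cell identity (chromosome 3, 34650405 to 34652461, plus strand, a gene of 1 exon). It measured 17.7, 16.2 and 14.5 CPM at P5 in batch A, 11.2 and 11.0 at P5 in batch B, and 11.6, 12.0 and 15.7 at P7. It measured 8.80, 9.57 and 6.38 CPM at P10, 6.60, 8.98 and 10.3 at P15, 6.44, 7.27 and 7.91 at P21, and 4.44, 3.83 and 5.85 at P28. Every library from P10 on is below every earlier one, though the lowest P5 library and the highest P15 library are close. Sox2 fell by 0.97 (SE 0.17, edgeR adjusted p = 3.35e-05) from P5 to P10, a 1.95-fold lower level, and by 1.78 (SE 0.18, edgeR adjusted p = 4.18e-09) to P28. Its fall from P7 to P10 was 1.21 (SE 0.25, edgeR adjusted p = 0.000498), and 0.67 without the batch term. At P5 it was lower in batch B than in batch A by a log2 difference of -0.54, which was not called (edgeR adjusted p = 0.0649). At P28 Sox2 kept 33.4% of its mean over all 5 P5 libraries of both batches, whereas Nes kept 6.14% and Fabp7 2.26%. The fitted changes, in effect against batch A, correspond to 3.43-fold, 15.5-fold and 51.4-fold lower levels. The genes most like Sox2 were Col11a1, a collagen gene, with a correlation of 0.971, Sparc, a matrix protein gene, and Tpcn1.

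Pax6 encodes a paired-box factor of radial glia and early granule lineage progenitors (chromosome 2, 105668900 to 105697364, plus strand). It was low throughout, at 6.10, 5.09 and 3.90 CPM at P5 in batch A, 3.82 and 4.00 at P5 in batch B, and 3.48, 3.19 and 4.92 at P7. It was 1.63, 2.23 and 2.23 CPM at P10, 1.57, 2.63 and 3 at P15, 1.97, 2.40 and 3.22 at P21, and 1.92, 1.99 and 2.20 at P28. The 4 later ages overlap with one another, and only the highest P21 library reaches the lowest P7 library. Pax6 fell by 1.31 (SE 0.25, edgeR adjusted p = 8.11e-05) from P5 to P10, and its change from P5 to P28 was -1.30 (SE 0.25, edgeR adjusted p = 5.1e-05), so that P10 had reached 100% of it. No step after P10 was called (edgeR adjusted p between 0.649 and 0.838). Its nearest genes were Mcm7, a replication helicase gene, with a correlation of 0.948, Ankrd10 and Gab1.

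Hopx encodes a small homeodomain protein without DNA binding, known from quiescent stem cells of the dentate gyrus and from astrocytes (chromosome 5, 77086988 to 77115121, minus strand). Its level was 21, 21 and 20.5 CPM at P5 in batch A, 22.1 and 17.4 at P5 in batch B, and 18.7, 16.1 and 18.2 at P7. It was 14.2, 18.5 and 12.5 CPM at P10, 12.7, 17.7 and 19.4 at P15, 9.48, 9.62 and 10.4 at P21, and 7.13, 8.81 and 8.35 at P28. The P10 and P15 libraries overlap with those of P5, and those of P21 and P28 lie below all others. The change from P5 to P10 was -0.47 (SE 0.14, edgeR adjusted p = 0.00641), only 34.1% of the change to P28.

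The P15 value of Hopx, -0.33 against P5 (SE 0.14, edgeR adjusted p = 0.0423), lost its call in 8 of 19 alternatives. Without P15 replicate 1 the change was -0.19 (adjusted p = 0.24), and without P5 replicate 1, 2 or 3 of batch A the adjusted p was 0.0824, 0.0849 and 0.0684. From P15 to P21 Hopx fell by 0.76 (SE 0.15, edgeR adjusted p = 0.000407), a step that coincides with the change to batch C. Among its nearest genes were Lhfpl3, a marker of oligodendrocyte precursors, with a correlation of 0.962, and Grik1, a kainate receptor gene. In the annotation 27.2% of its exon bases overlap Hopxos on the opposite strand. The strand setting of the authors' counting is not given in the sources used here, so reads of Hopx and Hopxos cannot be told apart with certainty.

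Eomes encodes TBR2, the factor that marks intermediate progenitors (chromosome 9, 118478212 to 118486132, plus strand). It measured 11.5, 7.29 and 6.98 CPM at P5 in batch A, 5.97 and 6.26 at P5 in batch B, and 4.33, 3.86 and 7.03 at P7. It measured 1.93, 1.63 and 0.602 CPM at P10, 0.890, 0.774 and 1.68 at P15, 0.536, 0.908 and 0.780 at P21, and 0.384, 0.157 and 0.927 at P28. P5 batch A replicate 1 stands above all others, the later ages overlap, and P28 replicate 2, with 3 counts, is at the floor. Eomes fell by 2.63 (SE 0.38, edgeR adjusted p = 6.47e-06) from P5 to P10. Its change from P5 to P28 was -4.15 (SE 0.44, edgeR adjusted p = 6.64e-08), or -4.97 without P28 replicate 3. Only 2.84% of its exon bases overlap an antisense gene, Gm33460.

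The genes most like Eomes were Igdcc4 with a correlation of 0.973, Ets1 and Top2a, which encodes the topoisomerase of dividing cells. Of 11 other genes of intermediate progenitors and the neurons they become, 8 fell and 2 rose from P5 to P15, with a median of -1.16. In this comparison 31.8% of all genes were lower and 31.6% higher. Igfbpl1 fell by 2.75 (SE 0.13, edgeR adjusted p = 3.18e-13), the proneural gene Neurod1 by 1.16 (SE 0.08, edgeR adjusted p = 2.76e-11) and Tbr1 by 0.80 (SE 0.07, edgeR adjusted p = 9.67e-10). The anti-proliferative gene Btg2 rose from 18.2 ± 1.13 to 54.0 ± 6.62 CPM, a change of 1.62 (SE 0.11, edgeR adjusted p = 4.11e-11). The other gene that rose was Gadd45g (1.05, SE 0.10, edgeR adjusted p = 2.26e-09), which falls outside the rule for named genes and was chosen after its values were seen.

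Hes5 and Hes1, the Notch target repressors, moved in opposite directions. Hes5 (chromosome 4, 154960923 to 154962371, plus strand), whose promoter is printed above, measured 15.5, 12.0 and 11.8 CPM at P5 in batch A, 7.50 and 8.44 at P5 in batch B, and 8.60, 9.72 and 10.7 at P7. It measured 5.30, 3.97 and 1.75 CPM at P10, 4.82, 5.00 and 6.15 at P15, 2.21, 2.67 and 2.60 at P21, and 1.75, 2.10 and 1.97 at P28. P10 replicate 3 is as low as the P28 libraries, while P10 replicate 1 lies among the P15 libraries. Hes5 fell by 1.83 (SE 0.22, edgeR adjusted p = 2.41e-07) from P5 to P10. Its change from P10 to P15, 0.53 (SE 0.23), was not called (edgeR adjusted p = 0.198), and from P15 to P21 it fell by 1.09 (SE 0.24, edgeR adjusted p = 0.00168).

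From P5 to P28 Hes5 fell by 2.75 (SE 0.24, edgeR adjusted p = 5.2e-10), a 6.72-fold lower level. Its P7 to P10 fall of 2.12 (SE 0.32, edgeR adjusted p = 1.91e-05) was 1.40 without the batch term. At P5 it was lower in batch B than in batch A by -0.72, just short of the threshold (edgeR adjusted p = 0.0502). In the annotation 31.8% of Hes5 exon bases overlap Gm20421 on the opposite strand, so with an unstated strand setting these reads are uncertain too. The genes most like Hes5 were Cpt1a, a gene of fatty acid import into mitochondria, with a correlation of 0.966, Zkscan17 and Ttyh2.

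Hes1 (chromosome 16, 30064384 to 30067796, plus strand) measured 2.76, 1.79 and 2.44 CPM at P5 in batch A, 1.77 and 2.47 at P5 in batch B, and 2.24, 2.75 and 2.85 at P7. It measured 4.16, 3.49 and 4.93 CPM at P10, 4.87, 5.26 and 6.05 at P15, 6.08, 7.91 and 4.32 at P21, and 6.09, 7.23 and 6.55 at P28. All libraries from P10 on are above all libraries of P5 and P7, and neighbouring ages after P10 overlap. Hes1 rose by 0.84 (SE 0.23, edgeR adjusted p = 0.00266) from P5 to P10, by 1.21 (SE 0.22, edgeR adjusted p = 4.5e-05) to P15 and by 1.5 (SE 0.22, edgeR adjusted p = 1.47e-06) to P28, a 2.83-fold higher level. No single step between neighbouring ages passed the threshold. The step from P7 to P10 was 0.54 (SE 0.35, edgeR adjusted p = 0.22), and it passed in 3 of 21 alternatives, all of them fits without the batch term (0.68, adjusted p = 0.00975 to 0.0125).

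The correlation of Hes1 with the other eight genes over the libraries lay between -0.92 and -0.73, while those 8 correlated with one another at 0.68 to 0.99. The genes most like Hes1 were Ctsa, a lysosomal enzyme gene, with a correlation of 0.952, Acta1 and Spata2.

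Within each library, Hes5 had 5.62, 6.68 and 4.81 counts per Hes1 count at P5 in batch A and 4.24 and 3.42 in batch B. The ratio was 3.84, 3.53 and 3.77 at P7, 1.28, 1.14 and 0.354 at P10, and 0.989, 0.951 and 1.02 at P15. It was 0.363, 0.338 and 0.602 at P21 and 0.288, 0.290 and 0.301 at P28. Hes5 thus exceeded Hes1 in every P5 and P7 library and was below it in every P21 and P28 library, and the P10 and P15 libraries lie on either side of equal counts. P10 replicate 3 falls within the range of the P21 libraries. These are counts, not levels per length, and scaling between libraries does not enter them.

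**Figure D3:**
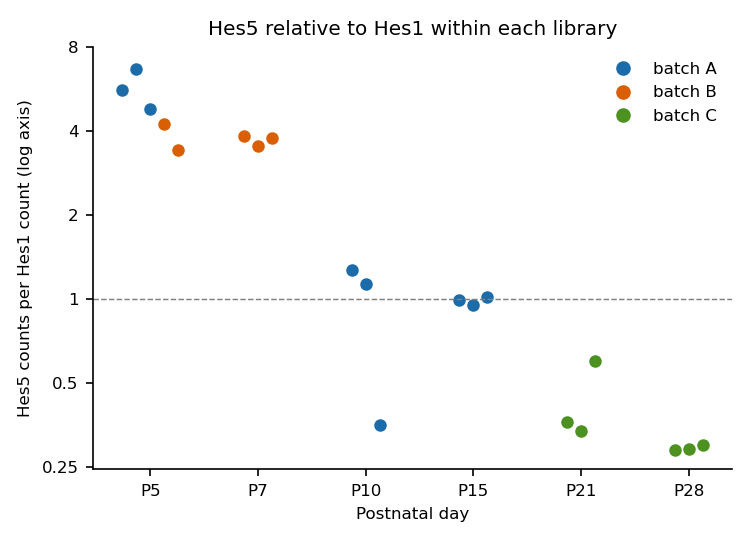
Hes5 counts per Hes1 count in each of the 20 libraries (log axis; dashed line at equal counts; colours are batches) by postnatal day. The ratio lies between 3.42 and 6.68 at P5 and between 0.288 and 0.301 at P28.

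Among 31 other genes of the Notch pathway (ligands, receptors, and processing or co-factor genes), 6 rose, 14 fell and 11 were not called from P5 to P15. Their median was -0.06, and 31.6% of all genes were higher and 31.8% lower. The genes with the smallest p were 3 that rose and 1 that fell. Maml2, a coactivator gene, rose by 1.72 (SE 0.12, edgeR adjusted p = 9.73e-11), and the Notch inhibitor genes Numbl and Numb by 0.64 (SE 0.05, edgeR adjusted p = 1.16e-10) and 1.1 (SE 0.10, edgeR adjusted p = 7.06e-10). Dner, a neuronal Notch ligand gene, fell from 335 ± 35.4 CPM (SD, n = 5) to 77.7 ± 7.01 (n = 3), a change of -2.21 (SE 0.16, edgeR adjusted p = 1.77e-08).

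Receptors and ligands of the pathway fall outside the rule for named genes and were picked after their values were seen. Between P5 and P15 the receptor genes Notch1, Notch3 and Notch4 fell by 1.5, 2.14 and 1.2 (edgeR adjusted p = 7.23e-05, 4.19e-05 and 0.000247), whereas Notch2 was not called (-0.39, edgeR adjusted p = 0.0938). The ligand genes Dll1 and Dll4 fell by 1.24 and 1.45 (edgeR adjusted p = 1.28e-07 and 4.81e-06) and Jag1 and Jag2 by 0.71 and 0.76 (edgeR adjusted p = 0.000207 and 2.05e-05). The ligand gene Dll3 rose by 0.51 (SE 0.16, edgeR adjusted p = 0.00883). Notch3 and Notch4 are known from mural and endothelial cells. Of 9 mural and fibroblast markers 6 fell, and of 8 endothelial markers 6 fell and 2 rose, where 31.8% of all genes were lower. Whether these cells bear on the changes of the Notch genes was not tested. Rbpj itself fell by 0.32 (SE 0.12, edgeR adjusted p = 0.0265). For P28 against P5, Notch1, Notch3, Notch4, Dll1, Dll4 and Jag2 were called lower too. Over that span Notch2, Jag1 (0.20, edgeR adjusted p = 0.204) and Rbpj (-0.02, edgeR adjusted p = 0.885) were not called. Dll3 was lower at P28 than at P5 (-0.68, SE 0.18, edgeR adjusted p = 0.00132).

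Of the other Hes, Hey and Groucho genes, 10 of 13 were tested: Hes2 and Hes3 were under the filter, and Aes is an older symbol of Tle5. From P5 to P15, 2 rose, 4 fell and 4 were not called, where 31.6% of all genes were higher and 31.8% lower. Hey1, another Notch target repressor, rose from 24.2 ± 1.96 CPM (SD, n = 5) to 65.1 ± 2.17 (n = 3), a change of 1.51 (SE 0.07, edgeR adjusted p = 6.5e-15). Hes6, which opposes HES1, fell by 0.84 (SE 0.10, edgeR adjusted p = 1.14e-07). The corepressor gene Tle2 fell by 1.88 (SE 0.31, edgeR adjusted p = 5.9e-05) and Tle5 rose by 0.23 (SE 0.06, edgeR adjusted p = 0.0011).

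Further radial glia and stem cell genes went the way of the 8 lower genes. Of 25 tested, 22 were lower and 1 was higher at P15 than at P5, with a median of -0.83. In this comparison 31.8% of all genes were lower and 31.6% higher. Tnc, a matrix gene of the stem cell niche, fell by 3.23 (SE 0.27, edgeR adjusted p = 9.74e-08) and Mfge8 by 1.90 (SE 0.11, edgeR adjusted p = 2.2e-13). Lrig1 fell by 1.23 (SE 0.10, edgeR adjusted p = 1.11e-10) and Ednrb, an endothelin receptor gene, by 1.21 (SE 0.15, edgeR adjusted p = 2.51e-07). The gene that rose was Lpar1 (0.70, SE 0.26, edgeR adjusted p = 0.0194), named after its value was seen.

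Cell cycle genes fell over the same span: 14 of 16 were lower at P15 than at P5, against 31.8% of all genes, with a median of -1.96. The replication gene Rrm2 fell by 2.46 (SE 0.19, edgeR adjusted p = 2.89e-11), Top2a by 2.65 (SE 0.23, edgeR adjusted p = 9e-10), Ccna2 by 2.24 (SE 0.22, edgeR adjusted p = 4.02e-09) and Cdk1 by 3.72 (SE 0.40, edgeR adjusted p = 1.86e-08). Summed, they made up 319 to 400 CPM of each P5 library and 322 to 332 CPM of each P7 library, but 244 to 248 by P10 and 211 to 230 by P15. Much of this sum came from Ccnd2, Pcna and Ccnd1, named after their values were seen. Their means were 175, 28.2 and 28.2 CPM at P5 and 136, 30.0 and 23.4 at P15. Ccnd2 fell by 0.34, and Pcna and Ccnd1 were not called (edgeR adjusted p = 0.117 and 0.152). From P5 to P7, 1 of the 16 was lower, against 4.89% of all genes.

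**Figure D4:**
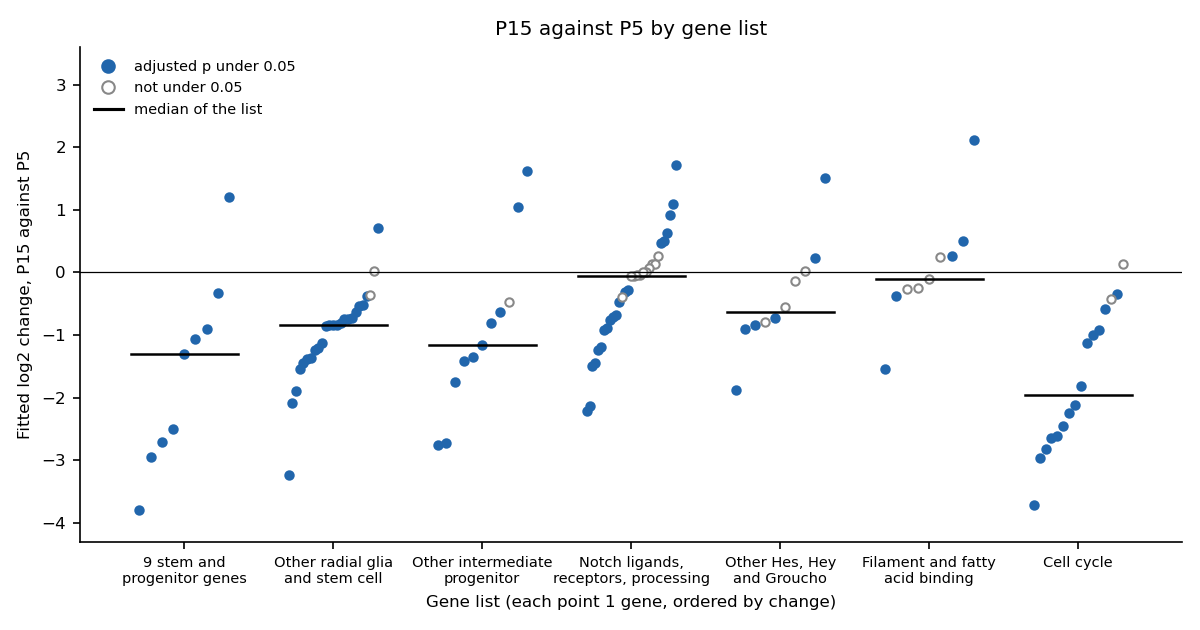
Fitted log2 change from P5 to P15 of every tested gene in the 9 genes and 6 related lists (each point 1 gene, filled where the adjusted p was under 0.05; black lines are medians). Points of the radial glia, progenitor and cell cycle lists lie mostly below 0, and those of the Notch list on either side of it.

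The labelled cell type was present by its markers. All 11 granule cell markers had more than 3 counts in every library from P7 on, and 10 of 11 in every P5 library, where Pla2g2f was at or under 3 counts in 2 of 5. Their summed level was 1546 to 1725 CPM at P5 and 2685 to 2764 at P28, and 8 of 11 rose from P5 to P15, against 31.6% of all genes. Prox1, Calb1 and C1ql3, named after their values were seen, were not called (edgeR adjusted p = 0.841, 0.621 and 0.966). Their means were 547, 603 and 189 CPM at P5 and 556, 640 and 194 at P15. Among the markers that rose, C1ql2, also named after its values were seen, had a mean of 74.1 CPM at P5 and 332 at P15. Markers of other cell types were present as well, and several lists moved with the 9 genes. For the counts below, 31.6% of all genes were higher and 31.8% lower at P15 than at P5. Of 11 astrocyte markers, 6 rose and 1 fell from P5 to P15. Their summed level was 732 to 799 CPM at P5, 1047 to 1285 at P7 and 1043 to 1454 at P10. It was 1415 to 1725 CPM at P15 and 1061 to 1317 at P28. The sum was thus higher at P15 than at P5, while 8 of the 9 genes were lower. From P7 to P10, where 7 of the 9 genes fell, 2 of the 11 markers rose and 4 fell, with a median of -0.62. Of all genes, 20.3% were lower in that comparison. The glutamate transporter gene Slc1a2 made up much of the astrocyte sum, with a mean of 339 CPM at P5, 999 at P15 and 720 at P28. From P5 to P28, 5 of the 11 markers rose (35.2% of all genes) and 5 fell (36.4% of all genes), with a median of -0.04. Among those that fell were Slc1a3, Aqp4 and Gja1, named after their values were seen.

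Vessel markers moved the same way as Nes and Vim. From P5 to P15, 6 of 8 endothelial markers fell and 2 rose, with a summed level of 44.5 to 82.7 CPM at P5, 22.1 to 31.9 at P15 and 15 to 18.9 at P28. Of 9 mural and fibroblast markers 6 fell, and their sum went from 241 to 801 CPM at P5 to 96.5 to 147 at P15, with Kcnj8 at or under 3 counts in every P21 and P28 library. At P5 the mural and fibroblast sum was higher in all 3 libraries of batch A than in either of batch B.

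Oligodendrocyte precursor markers, a lineage with Sox2 and Hes5, fell in 5 of 7 and rose in 1 from P5 to P15. Their sum was 106 to 191 CPM at P5, 91.8 to 141 at P15 and 42.1 to 55.7 at P28. All 8 myelin markers rose, from a sum of 98.1 to 125 CPM at P5 to 1030 to 1807 at P15, with Mog at or under 3 counts in every P5 library. Of 8 Cajal-Retzius markers, 6 fell, from 144 to 188 CPM at P5 to 45.0 to 57.5 at P15, and Lhx1 and Lhx5 were at or under 3 counts in every P10, P21 and P28 library.

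Ependymal and choroid plexus markers fell in 4 of 7 and rose in 1, with sums of 206 to 395 CPM at P5 and 88.7 to 223 at P15. Microglia markers rose in 4 of 8, with 22.6 to 28 CPM at P5 and 29.6 to 45.6 at P15. Interneuron markers rose in 6 of 10 and fell in 3, with 177 to 207 CPM at P5 and 279 to 338 at P15. No library of unselected hippocampal RNA was used here, so enrichment over the tissue was not measured. The part of any of these cell types in the changes of the 9 genes was not tested.

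**Figure D5:**
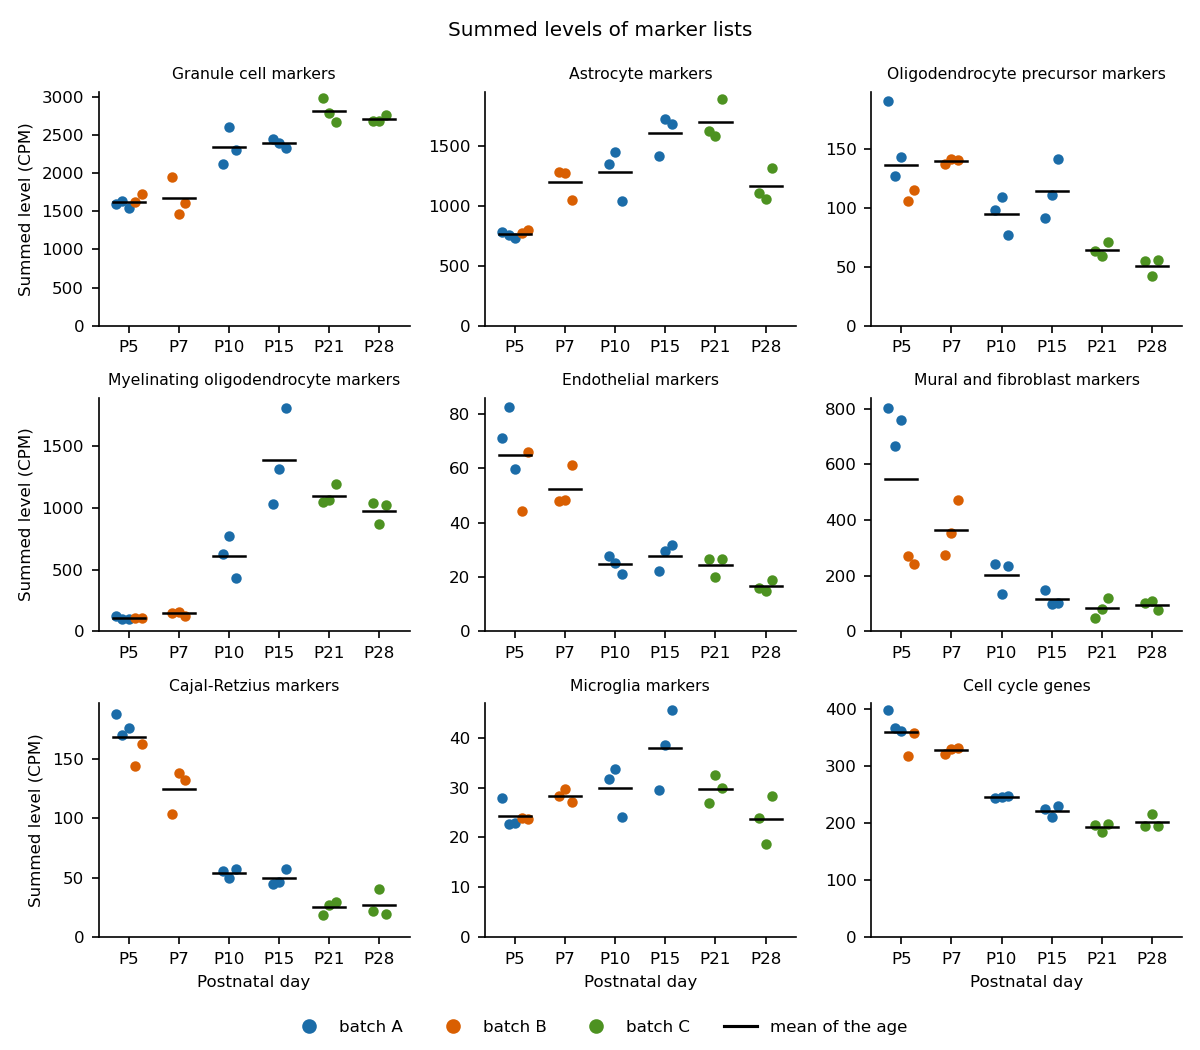
Summed level (CPM, linear axis from 0) of 8 marker lists and of the cell cycle genes in the 20 libraries by postnatal day, coloured by batch, with the mean of each age as a black line. Mean endothelial, mural and Cajal-Retzius sums are highest at P5, while granule cell, astrocyte and myelin sums are higher at P15 than at P5. Within batch B the mural sums at P5 (272 and 241 CPM) lie below those at P7 (273, 352 and 472 CPM). The endothelial sums of P5 and P7 overlap in that batch.

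Levels can be compared between genes only per length, here as mean CPM per kilobase of annotated exon. At P5 the order was Fabp7 at 106 ± 25.6 (SD, n = 5), Hopx at 13.5 ± 1.17, Vim at 8.89 ± 0.895, Hes5 at 8.10 ± 2.34, Sox2 at 6.85 ± 1.45, Nes at 4.77 ± 0.536, Eomes at 1.83 ± 0.54, Hes1 at 1.1 ± 0.218 and Pax6 at 0.392 ± 0.0848. The libraries of Vim overlap with those of Hes5, and those of Hes5 with those of Sox2, while no other neighbours in that order overlap.

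At P28 the order was Hopx at 5.34 ± 0.572 CPM per kilobase (SD, n = 3), Hes1 at 3.25 ± 0.283, Fabp7 at 2.40 ± 0.386, Sox2 at 2.29 ± 0.505, Hes5 at 1.42 ± 0.127, Vim at 1.09 ± 0.228, Nes at 0.293 ± 0.046, Pax6 at 0.174 ± 0.0126 and Eomes at 0.118 ± 0.0953. Hes1 thus went from the eighth place at P5 to the second at P28, and Fabp7 from the first to the third. At P28 the libraries of Fabp7 overlap with those of Sox2 and the libraries of Pax6 with those of Eomes, and no other neighbours overlap. Exon length covers all annotated transcripts, and which of them these cells use was not measured.

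Scaling by total counts in place of TMM factors shifted all genes together. The median change of all genes went from -0.02 to -0.15 for P10 against P5 and from -0.02 to -0.14 for P15 against P5. The share of called genes that were higher went from 50.1% to 37.6% and from 49.8% to 39.2% in these comparisons, and from 55.7% to 18% for P7 against P5. The 9 genes kept their directions and calls in all 3 comparisons under that scaling.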

How the data were processed

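The deposited table holds 1 column of raw counts per gene symbol for each of the 20 libraries; it is unfiltered, with 8790 of 32245 symbols at 0 in every library. Per the labels, RNA bound to HA-tagged ribosomes was made into stranded libraries after poly-A selection. The authors used mm10, STAR 2.7.5b, SAMtools 1.10 and featureCounts, per the submitters' processing notes. Not given in the sources used here: annotation, strand setting, handling of multiply mapped reads.

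The counts were fitted with edgeR 4.0.16 in R 4.3.3 (TMM factors, filterByExpr by age, robust quasi-likelihood, a mean for each age and a term for batch B, 13 residual degrees of freedom, biological coefficient of variation 8.46%). P-values were adjusted over 15373 genes. CPM values are counts per M after TMM scaling. Alternatives were DESeq2 1.42.0 or its size factors, limma-voom (limma 3.58.1), total counts, other filters, no batch term, other uses of the P5 libraries, a replicate block and leaving out each library.

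The 9 genes and the lists of related genes and markers were chosen with earlier results of these data known. Named list genes are up to 4 per list with the smallest p for P15 against P5, and similar genes the 3 with the highest Pearson correlation of log2 CPM (prior count 2). A result under this rule is not reported here. Libraries of the same age differed by more than sampling noise in every pair (chi-square over degrees of freedom between 3.7 and 40.7). Within 1 batch the highest value was 21.2, for P10 replicates 2 and 3. The P5 pairs across batches A and B ran from 27.4 to 40.7.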

Additional observations from a re-analysis of the deposited data

Results flagged for a closer look

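Among 21 sets of P5 values tested for a library standing apart (the levels of the 9 genes, of the summed marker and cell cycle lists, and the Hes5 to Hes1 ratio in the 5 P5 libraries), 2 had a highest library whose gap to the next exceeded Dixon's 95% critical value of 0.71 for 5 samples. Chance flags about 1 in 20 such sets. Eomes was at 11.5 CPM in P5 batch A replicate 1, where the next library was at 7.29. The summed level of microglia markers was 28 CPM in the same library. Without that library Eomes kept its calls in every comparison in which it was called.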

How the results depend on the processing

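For the 9 genes in 8 comparisons, 1399 of 1431 values under other settings kept their side of the threshold, 27 lost a call, 5 gained one and 0 reversed a called direction. Among uncalled values, 20 had the other sign, in 10 results, such as Hes5 for P7 against P5 (0.28, and -0.43 with P5 of batch A only). The side of the threshold was the same in every setting run for all but 6 of the 72 results, which are Vim and Nes (P28 against P21), Hopx (P15 against P5, P10 against P7), Hes1 (P10 against P7) and Fabp7 (P15 against P10).

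The number of the 9 genes called for P28 against P21 was 1, and it was 0 with total counts, the stricter filter, limma-voom, no batch term, the replicate block, P5 without batch B, P5 libraries of the same number summed, or any single P5, P21 or P28 library left out, and 2 with DESeq2. For P15 against P10 it was 1, and 0 with no batch term. Over all genes, P28 against P21 gave 39 calls, against 64 with no filter, 165 with DESeq2, 17 with limma-voom, 11 with no batch term and 19 with the replicate block. P7 against P5 gave 1698, against 3035 with total counts, 3586 with no batch term, 4573 with P5 of batch A only and 3571 with P5 libraries summed. P15 against P10 gave 670, against 1007 with DESeq2 and 405 with no batch term. The cause of these differences was not tested. Leaving out 1 library gave 518 (without P5 batch B replicate 1) to 1654 for P7 against P5, 108 (without P10 replicate 3) to 1473 (without P10 replicate 2) for P15 against P10, and 9 (without P28 replicate 2) to 32 for P28 against P21. Without P10 replicate 2, Hopx passed for P10 against P7 (adjusted p = 0.0496).

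Under total counts the share of higher genes among those called for P28 against P21 went from 25.6% to 51.5%, and 6 of 66 mean summed marker levels moved by more than 1 SD. Libraries with the same replicate number were no more alike than others. Their deviations from the mean of their age and batch correlated at a median of -0.01 over 57 pairs, 7 of them over 0.1. Pairs with different numbers had a median of 0.02 over 114 pairs, 22 of them over 0.1. These pairs lie mostly across ages, so they cannot decide whether P5 libraries of one number share an animal or lysate. The replicate block changed only the call of Vim for P28 against P21 among the 9 genes. P21 and P28 share a batch that no other age has, so no setting separates that batch from age.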
